A study of Mus musculus with 12 samples.

Results

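The heat shock proteins and their cochaperones were taken from the expression table by gene name. The set held every row named for an HSP70, HSP110, HSP90 or small heat shock protein, a J-domain protein (DNAJA, DNAJB, DNAJC), a subunit of the cytosolic chaperonin TRiC or the mitochondrial chaperonin, a BAG protein, or heat shock factor 1 or 2, with the cochaperones Chordc1, Ahsa1, Stip1 and Hspbp1. The endoplasmic reticulum HSP70 Hspa5 was left out. That gave 82 of the 13552 genes in the table, in 12 families, chosen by name and not by any measured value. The name rule also took in Hspb11, which carries a small heat shock protein symbol but works in intraflagellar transport. Of the 82 members, 79 reached 1 RPKM (the read count divided by exon length and by library size) in at least 3 mice and entered the tests. Bag4, Hspa1l and Hspb11 did not, with values of 0.418 to 0.996, 0.511 to 1.7 and 0.375 to 1.02 RPKM.

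The samples were 12 hearts of male C57BL/6J mice operated on at 8 to 10 weeks of age, in 4 groups of 3. Hearts came from wild-type (WT) mice or from Bcl-xL S14A knock-in (KI) mice, in which serine 14 of the anti-apoptotic protein Bcl-xL is replaced by alanine in every cell of the body, and were taken 9 hours after transverse aortic constriction (TAC) or a sham operation. TAC narrows the aorta and loads the left ventricle with pressure, and the comparisons ask what that load does to chaperone mRNA within hours and whether the unphosphorylatable allele changes it. The methods have all mice anesthetized and kept warm with lamps and an incubator, describe the wild-type males as bought from a supplier, and use homozygous KI mice, so WT and KI hearts were not stated to be littermates.

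Heat shock proteins hold unfolded proteins in a state from which they can fold again. HSP70 binds exposed hydrophobic stretches, J-domain proteins hand it clients and drive its ATP hydrolysis, HSP110 and BAG proteins make it release them, HSP90 matures kinases and receptors, small heat shock proteins hold unfolding proteins without using ATP, and TRiC folds actin and tubulin inside a closed chamber. Their stress-inducible genes are switched on by heat shock factors that bind repeats of the unit nGAAn, and in heart muscle small heat shock proteins and BAG3 are known for tending the Z-disc and filaments of the sarcomere.

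Library depth was 23650191 to 32455166 reads, and all KI TAC libraries (30298178 to 31676887 reads) were deeper than all WT TAC libraries (25715285 to 29608542). All 10 cardiomyocyte markers were present, with summed levels of 14584 to 24481 RPKM. KI TAC mouse 5 stood apart from the other hearts: its median-ratio size factor was the lowest of the 12, at 0.829 against 0.929 to 1.12 for the other 11, and its median over all genes was 0.24 lower than the KI sham mean on the log2 scale, against a median difference of -0.10 for KI TAC mouse 6 and 0.03 for mouse 7. Where leaving that heart out ended a call or moved a KI value markedly, the value without it is given as well. The fit uses 1 estimate of spread per gene for all 4 groups, so a wide KI TAC spread also raises the SE of the WT comparison. A WT difference that did not pass beside such a spread is therefore not shown to be absent. Since these are whole hearts, a lower level from fewer cells of a type and one from less RNA per cell cannot be told apart.

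Constriction changed 7 members in WT hearts and 21 in KI hearts (limma, Benjamini-Hochberg adjusted p under 0.05 over all 11240 genes). In WT hearts 6 of 79 members rose and 1 fell, which is 8.86%, against 11.6% of all genes (6.96% up and 4.6% down). In KI hearts 18 rose and 3 fell, which is 26.6%, against 23.3% of all genes, but the directions differed from the background, in which 8.57% of genes rose and 14.7% fell. The total share of members called was thus near the background in both genotypes. The median log2 fold change over the members was 0.10 in WT and 0.25 in KI hearts, against 0.035 and -0.10 over all genes. All 7 members called in WT hearts were also called in KI hearts in the same direction, and they made up 7 of the 21 called there. Median-ratio scaling moved the median of all genes in KI hearts from -0.10 to 0.003, and with it 27 members rose and 2 fell, while 1436 of all 11240 genes rose and 1350 fell.

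Between the 2 TAC groups, 7 members were higher in KI hearts and 0 were lower, which is 8.86% against 11% of all genes (2.92% up and 8.13% down). The median over the members was 0.16, against -0.12 over all genes, a background median that was -0.0007 under median-ratio scaling, where 10 members were higher and 0 lower, and 643 of all genes were higher and 604 lower. None of these 7 calls held when WT TAC mouse 7, KI TAC mouse 5 or KI TAC mouse 6 was left out. In sham hearts 0 of 79 members differed between the genotypes, with 0 at an unadjusted p under 0.05 by limma and 0 called by limma-voom, against 0.0178% of all genes. By overlap alone, 5 members were higher and 1 was lower in every KI sham than in every WT sham heart, against 2.08% and 1.19% of all genes. The interaction of genotype and surgery, which asks whether TAC acted differently in the 2 genotypes, was past the threshold for 0 members and 0% of all genes. By that interaction 11 of 79 members and 1668 of 11240 genes had an unadjusted p under 0.05, and limma-voom called 0 members. With all 12 hearts no member was therefore shown to respond differently in the 2 genotypes. Without KI TAC mouse 7 the interaction passed for 2 members, Hspa1a (5.86, limma adjusted p = 0.0482) and Dnaja4 (1.45, limma adjusted p = 0.0495), and for 182 of all genes.

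**Figure D1:**
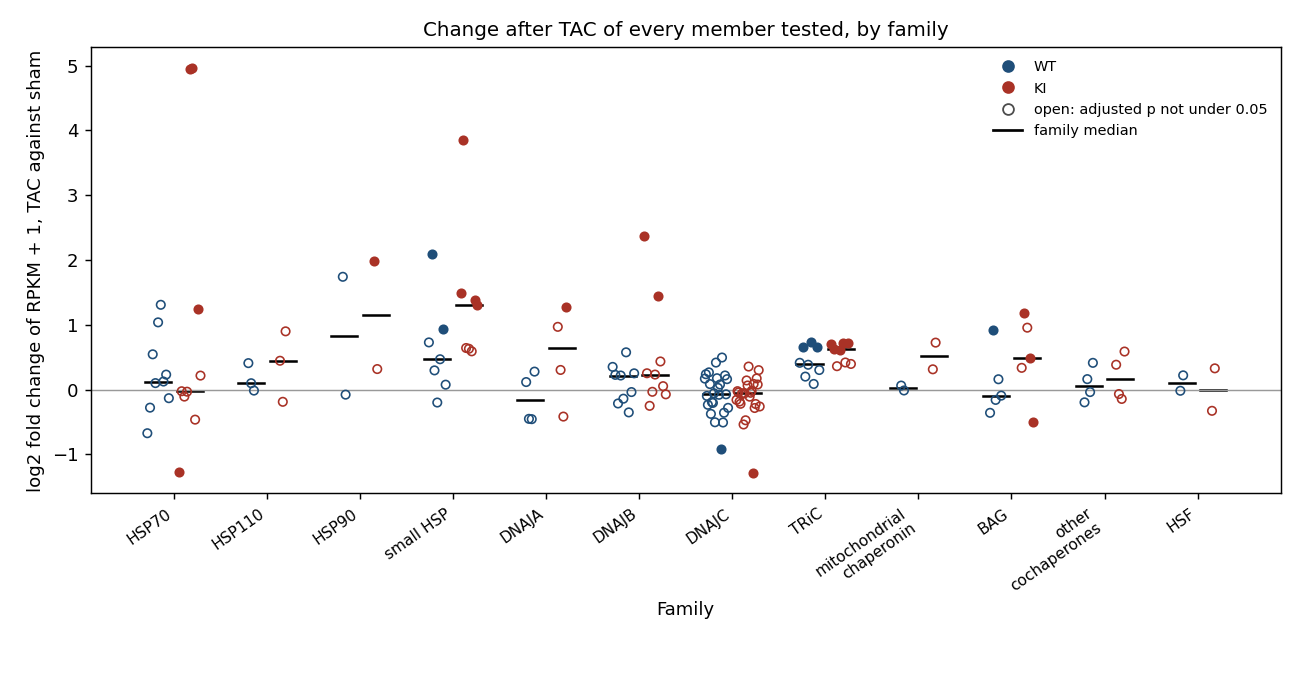
Log2 fold change of RPKM + 1 (vertical axis) between TAC and sham hearts for each of the 79 members tested, by family (horizontal axis), in WT (blue) and KI (red) hearts. Filled points passed an adjusted p of 0.05, open points did not, and black bars are family medians. The TRiC subunits all lie above 0 in both genotypes, and Hspa1a and Hspa1b near 5 in KI hearts are the highest points.

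The stress-inducible HSP70 genes Hspa1a and Hspa1b rose most of all members in KI hearts over the 3 mice together, and very unequally among them. Without KI TAC mouse 5 the order turned, with Hspb1 at 3.38 above both genes at 2.95 and 2.92. Both encode the same cytosolic HSP70 and lie beside each other on chromosome 17 (GRCm38), Hspa1a at 34969190 to 34972156 and Hspa1b at 34956436 to 34959238, both on the minus strand, and reads that fit both copies may be split or lost in counting. Hspa1a read 1356, 75.1 and 4.66 RPKM in KI TAC mice 5, 6 and 7, against 1.78, 2.26 and 1.16 in KI sham hearts. WT TAC mice 7, 9 and 10 read 3.54, 17.1 and 1.33, and WT sham hearts 1.03, 2.72 and 1.93. All KI TAC hearts were above all KI sham hearts, over a 291-fold range, while WT TAC and WT sham hearts overlapped. The log2 fold change was 4.96 (SE 1.33, limma adjusted p = 0.0168) in KI hearts and 1.04 (SE 1.33, limma adjusted p = 0.648) in WT hearts. The interaction was 3.92 (SE 1.88, limma adjusted p = 0.348), and the KI TAC and WT TAC hearts overlapped. Without KI TAC mouse 5 the KI change of Hspa1a was 2.95 (SE 0.90, limma adjusted p = 0.0421).

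Hspa1b followed the same order of mice, at 1690, 79.9 and 5.99 RPKM in KI TAC mice 5, 6 and 7 and 1.89 to 2.34 in KI sham hearts. In WT TAC mice 7, 9 and 10 it read 6.05, 23 and 2.57, against 1.27 to 4.16 in WT sham hearts. The KI change was 4.97 (SE 1.33, limma adjusted p = 0.0163), or 2.92 without KI TAC mouse 5 (limma adjusted p = 0.0349). The KI calls of both genes were lost without KI sham mouse 3 (limma adjusted p = 0.0562 for Hspa1a and 0.0513 for Hspa1b). Summed as 1 gene, the pair read 3046, 155 and 10.6 RPKM in the KI TAC hearts and 3.05 to 4.6 in the KI sham hearts, a change of 5.19 (SE 1.36, limma adjusted p = 0.0148). The third gene of that cluster, Hspa1l, which is best known from the testis, was too low to be tested and read 1.7, 1.43 and 0.86 RPKM in KI TAC mice 5, 6 and 7 against 0.511 to 0.603 in KI sham hearts.

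The 150 bases before the start of Hspa1a and Hspa1b are shown because the pair moved together. They were read from the RefSeq promoter table (GRCm38.p6, minus strand, chr17:34972157-34972306 for Hspa1a and chr17:34959239-34959388 for Hspa1b), and capitals mark a pair of heat shock units facing each other.
Hspa1a: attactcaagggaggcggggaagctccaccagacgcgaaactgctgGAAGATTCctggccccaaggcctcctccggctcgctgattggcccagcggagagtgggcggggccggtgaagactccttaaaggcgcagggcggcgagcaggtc
Hspa1b: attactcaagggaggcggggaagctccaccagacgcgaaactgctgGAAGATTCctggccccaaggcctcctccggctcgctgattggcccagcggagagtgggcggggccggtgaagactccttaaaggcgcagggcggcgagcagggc
The windows were the same in 149 of 150 bases, and the marked pair of units begins 104 bases before the start of each gene.

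The constitutive HSP70 Hspa8, which uncoats clathrin vesicles and folds new proteins, was abundant in all hearts. It read 522, 229 and 121 RPKM in KI TAC mice 5, 6 and 7, 100 to 105 in KI sham hearts, 110, 165 and 97 in WT TAC mice 7, 9 and 10, and 95.2 to 108 in WT sham hearts. Every KI TAC heart was above every KI sham heart, and the WT groups overlapped. The change was 1.24 (SE 0.38, limma adjusted p = 0.0316) in KI hearts and 0.23 (SE 0.38, limma adjusted p = 0.728) in WT hearts, and the KI call was lost without KI TAC mouse 5, at 0.70 (limma adjusted p = 0.108), and without KI TAC mouse 6 or any 1 KI sham mouse (limma adjusted p = 0.0651 to 0.0885).

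Hspa12a, a distant HSP70 relative with an atypical ATPase domain, moved the other way. It read 2.17, 1.39 and 1.52 RPKM in the KI TAC hearts against 8.23, 3.71 and 5.27 in the KI sham hearts, with no overlap, and fell by 1.28 (SE 0.25, limma adjusted p = 0.0029). In WT hearts it read 2.99, 2.06 and 4.64 after TAC and 5.02 to 6.09 after sham, a difference of -0.67 (SE 0.25, limma adjusted p = 0.0974). The other 5 HSP70 members tested, among them the mitochondrial Hspa9, lay between -0.46 and 0.22 in KI hearts and none was called. Without KI TAC mouse 5 Hspa2 fell (-0.65, limma adjusted p = 0.0218). The median of the 9 members tested in KI hearts was -0.02, and turned to 0.07 under quantile normalization and 0.11 under median-ratio scaling.

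Hsp90aa1, the inducible cytosolic HSP90, read higher in the TAC hearts of both genotypes and passed the test in KI hearts, and by limma-voom in WT hearts as well (1.96, adjusted p = 0.0464). It read 99.1, 25.1 and 17 RPKM in KI TAC mice 5, 6 and 7 and 10.1, 8.56 and 6.07 in KI sham hearts. WT TAC mice 7, 9 and 10 read 25.6, 30.1 and 16.8, and WT sham mice 2.41, 9.9 and 9.62. TAC and sham hearts did not overlap in either genotype, and KI TAC mice 6 and 7 were within the range of the WT TAC hearts. The change was 1.99 in KI hearts (SE 0.54, limma adjusted p = 0.0186) and 1.74 in WT hearts (SE 0.54, limma adjusted p = 0.0536), with an interaction of 0.25 (SE 0.77, limma adjusted p = 0.891). The KI call was lost without KI TAC mouse 5 (1.26, limma adjusted p = 0.0662) and without KI sham mouse 3 (1.81, limma adjusted p = 0.0725). The constitutive Hsp90ab1 held 93.1% of the summed HSP90 level over all hearts and read 219 to 353 RPKM in sham hearts, 248 to 264 in WT TAC hearts and 459, 326 and 284 in KI TAC mice 5, 6 and 7, with no call in any comparison.

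Hsph1, the inducible HSP110 and nucleotide exchange factor of HSP70, was high in 1 heart. It read 29.8, 4.77 and 1.85 RPKM in KI TAC mice 5, 6 and 7, 3.22 to 3.59 in WT TAC hearts and 2.85 to 4.06 in the 6 sham hearts, so KI TAC mouse 7 was the lowest of all 12 hearts. The KI difference was 0.90 (SE 0.57, limma adjusted p = 0.27) and was -0.08 without KI TAC mouse 5. Its relative Hspa4, the most abundant HSP110, read 11.3 to 14.1 RPKM in sham hearts, 14 to 19.6 in WT TAC and 15.4 to 20 in KI TAC hearts, with differences of 0.41 in WT and 0.45 in KI hearts that did not pass (limma adjusted p = 0.136 and 0.0741), although under median-ratio scaling the KI value did (0.58, limma adjusted p = 0.0324).

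Among the J-domain proteins, 1 of 4 DNAJA and 2 of 9 DNAJB members tested rose in KI hearts and none was called in WT hearts. Over all genes 8.57% rose in KI hearts and 11.6% were called in WT hearts. Dnajb1, the main stress-inducible partner of HSP70, read 307, 23.5 and 11.7 RPKM in KI TAC mice 5, 6 and 7 against 10.4, 6.91 and 6.71 in KI sham hearts. In WT hearts it read 9.69 to 11.4 after TAC and 6.59 to 9.61 after sham. Neither pair of groups overlapped, although WT TAC mouse 10 and WT sham mouse 2 were 9.69 and 9.61. The change was 2.37 in KI hearts (SE 0.78, limma adjusted p = 0.0412), or 0.99 without KI TAC mouse 5 (SE 0.27, limma adjusted p = 0.0251), and 0.35 in WT hearts (SE 0.78, limma adjusted p = 0.806). The SE is shared by the groups, so the KI TAC spread (SD 167 RPKM, against 0.849 in WT TAC hearts) also entered the WT p-value. The KI call of Dnajb1 was lost under 8 of 19 alternatives, among them leaving out any 1 KI sham mouse, with a highest limma adjusted p of 0.113.

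Dnajb4, a close relative of Dnajb1, was raised in all 3 KI TAC hearts. It read 24, 17.2 and 12.9 RPKM there against 5.62 to 5.92 in KI sham hearts, and 6.63 to 9.94 in WT TAC hearts against 3.79 to 6.98 in WT sham hearts. All KI TAC hearts were above all other hearts. The change was 1.45 in KI hearts (SE 0.23, limma adjusted p = 0.000872), and Dnajb4 was higher in KI than in WT TAC hearts by 1.00 (SE 0.23, limma adjusted p = 0.0206), or 0.78 without KI TAC mouse 5 (limma adjusted p = 0.0599). The interaction did not pass, at 0.88 (SE 0.33, limma adjusted p = 0.251). Dnajb5, another member of that group, was also higher in KI than in WT TAC hearts, at 51, 39.3 and 34.8 against 27.5, 27.4 and 20.3 RPKM, a difference of 0.71 (SE 0.21, limma adjusted p = 0.0456) that did not pass without KI TAC mouse 5 (0.56, limma adjusted p = 0.128). Its 6 sham hearts read 25.5 to 36.5 RPKM, so WT TAC mouse 10 was below that range, KI TAC mice 5 and 6 were above it, and the other TAC hearts were within it.

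In the DNAJA class, Dnaja4 read 87.9, 56 and 26.1 RPKM in KI TAC mice 5, 6 and 7 and 17.9 to 22.2 in KI sham hearts, and rose by 1.27 (SE 0.33, limma adjusted p = 0.0141), or 0.88 without KI TAC mouse 5 (limma adjusted p = 0.0565). WT hearts read 21.2 to 29.9 after TAC and 17.2 to 24.7 after sham, and overlapped. Dnaja1, a partner of HSP70 and HSP90 in the cytosol, read 14.1, 2.94 and 1.78 RPKM in KI TAC mice 5, 6 and 7 and 0.84 to 1.82 in the sham hearts, with no call (0.97, SE 0.43, limma adjusted p = 0.118, or 0.24 without KI TAC mouse 5). Dnaja2 was higher in KI than in WT TAC hearts (31.3, 47.9 and 31.5 against 17.5, 17 and 28.9 RPKM, a difference of 0.79, SE 0.23, limma adjusted p = 0.0417, or 0.89 with a limma adjusted p of 0.0562 without KI TAC mouse 5), and its sham hearts, at 25.3 to 32.7 RPKM, overlapped both TAC groups. Dnaja3, the mitochondrial member, read 19.6 to 32.7 RPKM in KI TAC and 23.6 to 33.9 in WT TAC hearts against 31.9 to 43.4 in sham hearts and was not called. An exon of Dnaja3 overlaps Vasn on the same strand, so reads of those 2 genes may not be told apart.

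The DNAJC class, whose members carry the J domain within otherwise unrelated proteins, held little change. Of its 24 members 1 fell in each genotype, Dnajc28, and none rose. Over all genes 4.6% fell and 6.96% rose in WT hearts, and 14.7% fell and 8.57% rose in KI hearts. Under both other scalings Dnajc21 rose in KI hearts as well (0.46 and 0.47), and under quantile normalization Dnajc16 fell in KI and Dnajc19 in WT hearts (-0.46 and -0.56). Dnajc28 read 2.14, 3.83 and 2.44 RPKM in KI TAC hearts against 7.44 to 9 in KI sham hearts, and 3.51, 2.86 and 5.05 in WT TAC hearts against 7.31 to 8.38 in WT sham hearts. TAC and sham hearts were apart in both genotypes. It fell by 1.29 in KI hearts (SE 0.20, limma adjusted p = 0.000635) and by 0.91 in WT hearts (SE 0.20, limma adjusted p = 0.01). The other 23 ranged from -0.51 to 0.50 in WT and from -0.54 to 0.36 in KI hearts. The median of the class was -0.06 in both genotypes, but in KI hearts it turned to 0.04 under quantile normalization and 0.05 under median-ratio scaling. Dnajc4, the most abundant member, read 22.8 to 41.2 RPKM over all hearts.

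**Figure D2:**
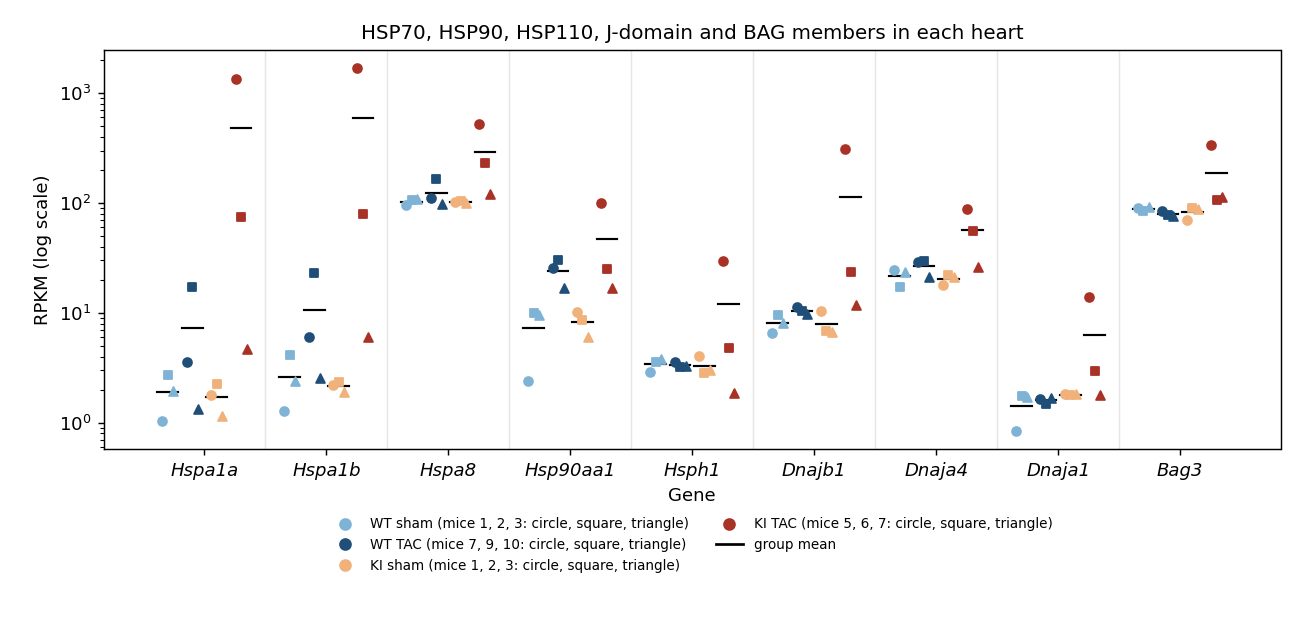
RPKM on a log scale (vertical axis) of 9 HSP70, HSP90, HSP110, J-domain and BAG genes (horizontal axis) in each of the 12 hearts, coloured by group, with marker shapes for the mice of a group and black bars for group means. KI TAC mouse 5 (red circles) is the highest heart for all 9 genes, and KI TAC mouse 7 (red triangles) lies just above the sham hearts for Hspa8 and Dnaja4, within them for Dnaja1 and below them for Hsph1.

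Among the BAG proteins, which join HSP70 to other machinery, Bag2 rose in both genotypes. Bag2, an inhibitor of the HSP70-bound ubiquitin ligase CHIP, read 26.8, 25.8 and 22.5 RPKM in WT TAC and 36.9, 30.6 and 26.2 in KI TAC hearts against 11.8 to 14.6 in the 6 sham hearts. TAC and sham hearts were clearly apart, and the TAC hearts of the 2 genotypes overlapped. The change was 0.92 in WT hearts (SE 0.17, limma adjusted p = 0.0045) and 1.19 in KI hearts (SE 0.17, limma adjusted p = 0.00043). Bag5 rose in KI hearts by 0.49 (SE 0.15, limma adjusted p = 0.0292), from 5.68 to 6.53 RPKM to 8.15, 8.74 and 10.2, while in WT hearts it read 6.23 to 7.37 after TAC and 5.55 to 6.56 after sham. The KI call of Bag5 was lost without KI sham mouse 1 or 3 or KI TAC mouse 6 or 7 (limma adjusted p = 0.058 to 0.119). Bag6, a guide for membrane and misfolded proteins, fell in KI hearts by 0.51 (SE 0.17, limma adjusted p = 0.0461), from 105 to 124 RPKM to 79.1, 71.8 and 90, and this call was lost under 11 of 19 alternatives, among them median-ratio scaling (-0.37, limma adjusted p = 0.129) and leaving out KI TAC mouse 5 (-0.50, limma adjusted p = 0.0945). No BAG member was called between the TAC groups. Under quantile normalization and under median-ratio scaling 2 BAG members were higher in KI TAC hearts, where 523 and 643 of all genes were.

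Bag3, which with Hspb8 delivers damaged Z-disc proteins to autophagy, stood in opposite positions in the 2 genotypes. It read 338, 107 and 114 RPKM in KI TAC mice 5, 6 and 7 against 70.3, 89.3 and 88.2 in KI sham hearts, and 83.8, 78.5 and 76.4 in WT TAC hearts against 90.4, 84.8 and 91.5 in WT sham hearts. Every KI TAC heart was above every KI sham heart, and every WT TAC heart was below every WT sham heart. Neither difference passed, at 0.96 in KI hearts (SE 0.33, limma adjusted p = 0.052) and -0.16 in WT hearts (SE 0.33, limma adjusted p = 0.793), and without KI TAC mouse 5 the KI value was 0.42 (limma adjusted p = 0.138). The KI value of Bag3 did pass by limma-voom (0.96, adjusted p = 0.045) and without KI TAC mouse 6 (1.25, limma adjusted p = 0.0257) or mouse 7 (1.20, limma adjusted p = 0.0287).

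The small heat shock proteins were the most abundant family and held the largest change of a single member in WT hearts. Their family median there was 0.47, below the 0.83 of the 2 HSP90 members. Their summed level was 2964 ± 344 RPKM (SD, n = 3) in WT sham and 5314 ± 726 in WT TAC hearts, and 2923 ± 292 in KI sham and 9362 ± 2485 in KI TAC hearts. The sum was 12231, 7907 and 7949 RPKM in KI TAC mice 5, 6 and 7, each above every WT TAC heart (4515 to 5935). Of the 7 members tested 2 rose in WT hearts, 4 in KI hearts, and 3 were higher in KI than in WT TAC hearts. Over all genes those shares were 6.96%, 8.57% and 2.92%. Under quantile normalization 2 members and 523 of all 11240 genes were higher in KI than in WT TAC hearts. The family median of that comparison was then 0.44 instead of 0.78. The family median in KI hearts was 1.30, and 0.98 without KI TAC mouse 5.

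Hspb1 (HSP27), which binds actin filaments and filamin, rose in both genotypes. It read 990, 1058 and 330 RPKM in WT TAC mice 7, 9 and 10 against 209, 160 and 129 in WT sham hearts, and 4950, 2161 and 1565 in KI TAC mice 5, 6 and 7 against 156, 237 and 148 in KI sham hearts. All TAC hearts were above all sham hearts, and all KI TAC hearts were above all WT TAC hearts. The change was 2.10 in WT hearts (SE 0.46, limma adjusted p = 0.0102) and 3.85 in KI hearts (SE 0.46, limma adjusted p = 0.000132), or 3.38 in KI hearts without KI TAC mouse 5 (limma adjusted p = 0.000526). The 2 TAC groups differed by 1.86 (SE 0.46, limma adjusted p = 0.0236), and by 1.39 without KI TAC mouse 5 (limma adjusted p = 0.0721), and the interaction was 1.75 (SE 0.64, limma adjusted p = 0.245). The WT call was lost without WT TAC mouse 7 (1.85, limma adjusted p = 0.0505).

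Hspb7, a cardiac small heat shock protein that binds filamin C and actin, rose in both genotypes and varied little within each group. It read 1900, 1966 and 1721 RPKM in WT TAC and 2006, 2466 and 2697 in KI TAC hearts, against 950 to 985 in WT sham and 829 to 966 in KI sham hearts. No TAC heart came near a sham heart in either genotype, and KI TAC mouse 5 was the lowest of the KI TAC hearts. The change was 0.94 in WT hearts (SE 0.19, limma adjusted p = 0.00626) and 1.38 in KI hearts (SE 0.19, limma adjusted p = 0.000265), with an interaction of 0.44 (SE 0.26, limma adjusted p = 0.44).

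Hspb8, the partner of Bag3, was raised in KI TAC hearts and stayed within the sham range in WT TAC hearts. It read 762, 430 and 359 RPKM in KI TAC mice 5, 6 and 7 against 195 to 203 in KI sham hearts, and 193, 210 and 264 in WT TAC hearts against 174 to 278 in WT sham hearts. The change was 1.30 in KI hearts (SE 0.27, limma adjusted p = 0.00411) and 0.08 in WT hearts (SE 0.27, limma adjusted p = 0.884), with a difference between the TAC groups of 1.15 (SE 0.27, limma adjusted p = 0.0211) and an interaction of 1.23 (SE 0.38, limma adjusted p = 0.194). Without KI TAC mouse 5 the KI change was 0.98 (limma adjusted p = 0.0148) and the difference between the TAC groups 0.83 (limma adjusted p = 0.059).

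Cryab (αB-crystallin), which guards desmin and titin, read 3365, 1671 and 1826 RPKM in KI TAC mice 5, 6 and 7 against 608 to 1032 in KI sham hearts. In WT hearts it read 1402, 1185 and 1215 after TAC and 653 to 930 after sham. TAC and sham hearts were apart in both genotypes and KI TAC hearts were above WT TAC hearts. It rose by 1.50 in KI hearts (SE 0.28, limma adjusted p = 0.00225), or 1.18 without KI TAC mouse 5 (limma adjusted p = 0.00829), and the WT difference of 0.73 did not pass (SE 0.28, limma adjusted p = 0.109). Cryab and its neighbour Hspb2 overlap in exons on opposite strands, the kit keeps strand but the strand setting of the counting was not stated, and their reads may be mixed. Hspb2 read 28.9 to 55 RPKM in sham, 42.6 to 52.2 in WT TAC and 52.3 to 69.6 in KI TAC hearts, with no call.

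Hspb3, a muscle form that pairs with Hspb2, was higher in KI than in WT TAC hearts. It read 10.3, 5.94 and 6.38 against 4.43, 2.42 and 4.31 RPKM, a difference of 0.85 (SE 0.26, limma adjusted p = 0.0487) that was lost under 13 of 19 alternatives, among them leaving out KI TAC mouse 5 (0.63, limma adjusted p = 0.145), and 3.46 to 6.42 in sham hearts, so both TAC groups overlapped the range of the sham hearts. Hspb6, the phosphorylatable muscle form HSP20, read 695 to 901 RPKM in sham, 928 to 1394 in WT TAC and 1075 to 1425 in KI TAC hearts. TAC and sham hearts of Hspb6 did not overlap in either genotype, but its differences of 0.47 in WT and 0.59 in KI hearts did not pass (limma adjusted p = 0.172 and 0.061). Under median-ratio scaling Hspb6 (0.73) and Hspb2 (0.78) passed in KI hearts, and under quantile normalization Hspb2 did (0.65).

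**Figure D3:**
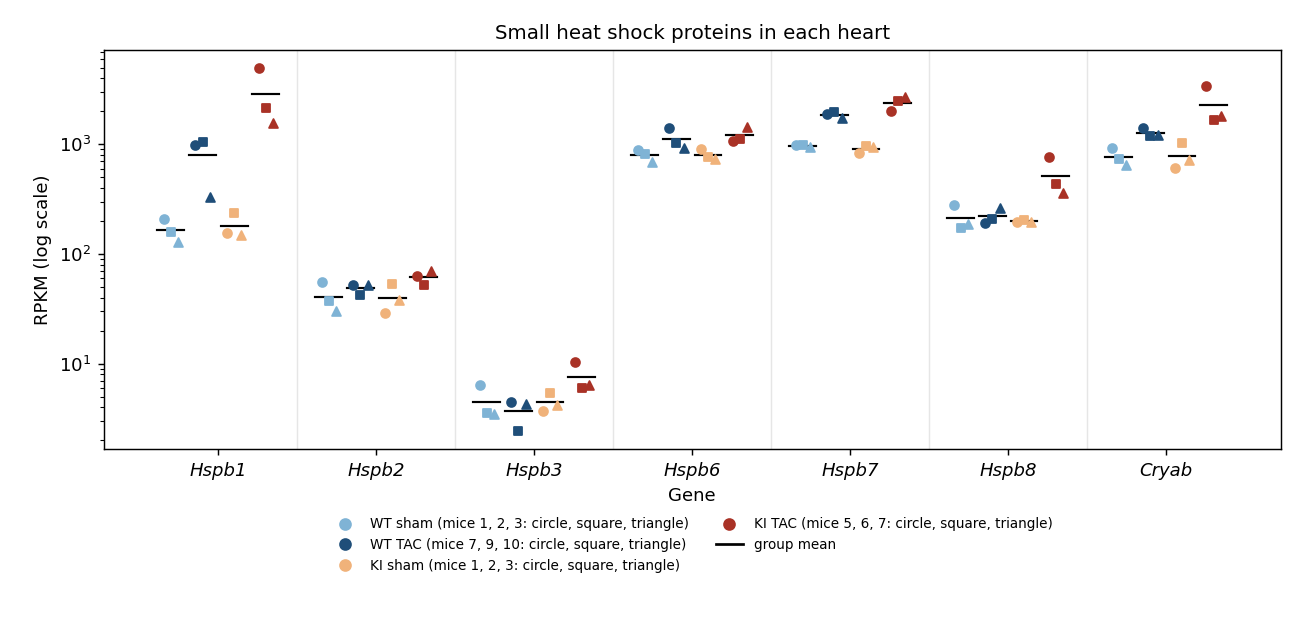
RPKM on a log scale (vertical axis) of the 7 small heat shock protein genes tested (horizontal axis) in each of the 12 hearts, coloured by group, with marker shapes for the mice of a group and black bars for group means. Hspb1 lies at 3 levels, 129 to 237 RPKM in sham hearts of both genotypes, 330 to 1058 in WT TAC and 1565 to 4950 in KI TAC hearts, and Hspb7 is nearly level within each group.

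Of the 8 TRiC subunits, 3 rose in WT and 5 rose in KI hearts, and none fell. Over all genes 6.96% rose in WT and 8.57% in KI hearts. All 8 had a positive log2 fold change in both genotypes, with a median of 0.40 and a range of 0.09 to 0.74 in WT hearts and a median of 0.62 and a range of 0.36 to 0.73 in KI hearts. Cct4, Cct7 and Tcp1 passed in neither. TRiC folds actin, tubulin and other new cytosolic proteins as a ring of these 8 different subunits. The summed level was 116 ± 11.6 RPKM (SD, n = 3) in WT sham and 160 ± 14.3 in WT TAC hearts, and 122 ± 15.3 in KI sham and 186 ± 7.84 in KI TAC hearts. In the KI TAC hearts it was 179, 195 and 185 RPKM, so mouse 5 was not the highest. All 8 subunits were higher in every KI TAC than in every KI sham heart, and 7 of 8 in every WT TAC than in every WT sham heart, while 13.6% and 20% of all genes were higher without overlap in KI and WT hearts. The subunit that overlapped in WT hearts was Cct7. Under quantile normalization and median-ratio scaling all 8 were called in KI hearts, where 1360 and 1436 of all 11240 genes rose.

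Among the subunits, Cct6a read 17.1, 15.3 and 16.1 RPKM in WT TAC and 16.3, 16.8 and 17.8 in KI TAC hearts, against 8.42 to 11 in the sham hearts. Its change was 0.74 in WT hearts (SE 0.15, limma adjusted p = 0.00766) and 0.72 in KI hearts (SE 0.15, limma adjusted p = 0.00424), and the TAC groups overlapped. Cct8 read 22.6, 22 and 32.5 RPKM in WT TAC and 24.5, 32.7 and 26.4 in KI TAC hearts against 15.3 to 16.5 in sham hearts. Cct3 read 19.1, 16.6 and 20.2 in WT TAC and 17.7, 19.4 and 22.5 in KI TAC hearts against 10 to 14.8 in sham hearts. Both rose in both genotypes, Cct8 by 0.66 in WT and 0.73 in KI hearts and Cct3 by 0.66 and 0.63. Their WT calls were lost without any 1 of WT sham mice 2 and 3 and WT TAC mice 7 and 10, the call of Cct8 also without WT sham mouse 1 or KI sham mouse 3, and the KI call of Cct3 without KI sham mouse 1 or 3 or KI TAC mouse 7. Cct2, the most abundant subunit, rose in KI hearts only by the test, to 40.7, 43 and 43.6 RPKM from 23.4 to 30.1 (0.70, SE 0.17, limma adjusted p = 0.00973), with a WT difference of 0.41 (SE 0.17, limma adjusted p = 0.13) and an interaction of 0.29 (limma adjusted p = 0.579). Cct5 rose in KI hearts by 0.62 (limma adjusted p = 0.0205), a call lost without KI TAC mouse 5 (0.59, limma adjusted p = 0.0552), and Tcp1, the first subunit of the ring, read 12.5 to 15.7 RPKM in sham, 14.9 to 19.4 in WT TAC and 17.5 to 20.8 in KI TAC hearts with no call. Cct6a, Cct7, Cct8 and Tcp1 each overlap a gene on the opposite strand.

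**Figure D4:**
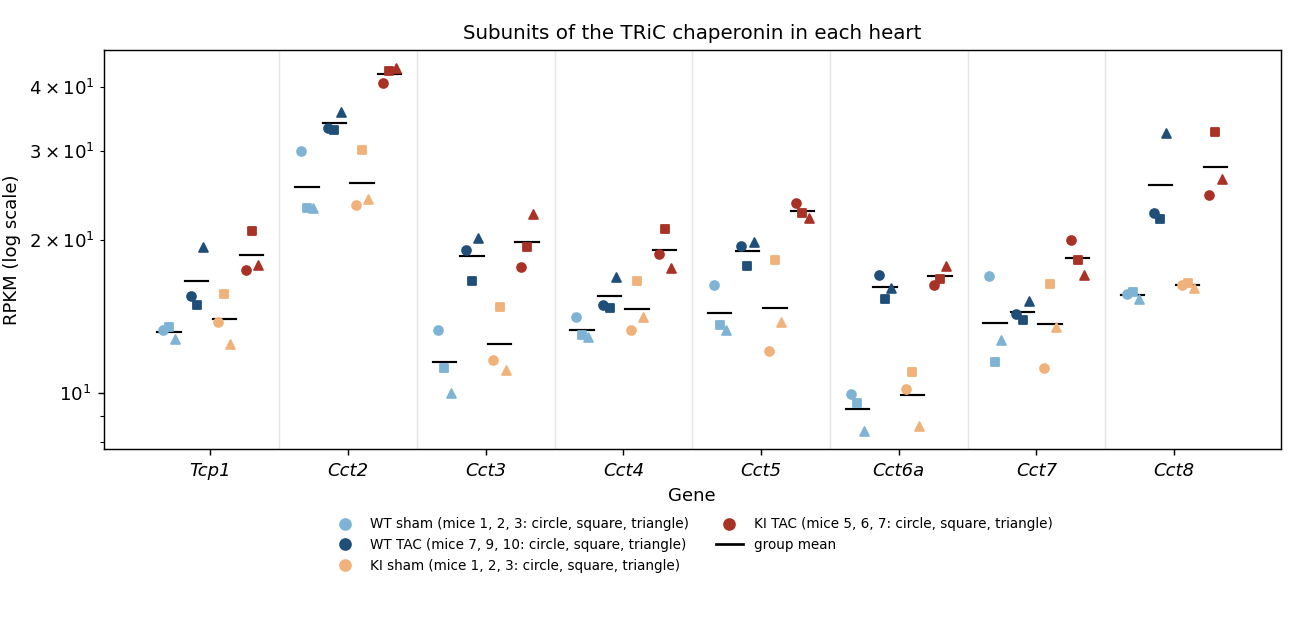
RPKM on a log scale (vertical axis) of the 8 TRiC subunits (horizontal axis) in each of the 12 hearts, coloured by group, with marker shapes for the mice of a group and black bars for group means. The WT TAC and KI TAC points lie close together for Cct3, Cct6a and Cct8, above the sham points, and KI TAC mouse 5 (red circles) does not stand out.

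The mitochondrial chaperonin Hspd1 (HSP60) and its lid Hspe1 (HSP10) were not called in any comparison in the fit of all 12 hearts as deposited. Under quantile normalization Hspe1 passed in KI hearts (0.76, limma adjusted p = 0.0473), and leaving out KI sham mouse 2 also made it pass there, as did leaving out KI TAC mouse 7, which made it pass between the TAC groups too (1.00, limma adjusted p = 0.0235). Hspe1 read 49.4, 29.7 and 22.5 RPKM in KI TAC mice 5, 6 and 7 against 15.5, 24.7 and 18 in KI sham hearts, with a difference of 0.73 (SE 0.26, limma adjusted p = 0.0609), or 0.42 without KI TAC mouse 5. Hspd1 read 30.1, 35.2 and 27 in KI TAC hearts against 24.1 to 24.7 in KI sham hearts, without overlap (0.31, SE 0.18, limma adjusted p = 0.213). In WT TAC hearts Hspe1 stayed within the sham range, at 17.2 to 20.8 RPKM, and Hspd1 read 20.4, 20.3 and 28.9, overlapping the WT sham hearts at 21.1 to 22.9. The 2 genes lie head to head and overlap on opposite strands.

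Of the other cochaperones, Ahsa1, the activator of HSP90's ATPase, was higher in KI than in WT TAC hearts. It read 14, 12.9 and 12.6 against 7.92, 7.74 and 9.73 RPKM, a difference of 0.59 (SE 0.18, limma adjusted p = 0.0488), while the sham hearts read 8.46 to 12.1, below every KI TAC heart and overlapping the WT TAC hearts. This call was lost under 11 of 19 alternatives (highest limma adjusted p = 0.172), among them leaving out KI TAC mouse 5 (0.55, limma adjusted p = 0.107). Stip1 (HOP), which links HSP70 to HSP90, read 54.7, 36.9 and 30.2 RPKM in KI TAC mice 5, 6 and 7, 31.3 to 39.2 in WT TAC and 21.9 to 30.4 in sham hearts, with no call (0.59 in KI and 0.41 in WT hearts, limma adjusted p = 0.0624 and 0.226), although in KI hearts it passed under quantile normalization (0.63) and median-ratio scaling (0.72), as did Ahsa1 (0.45 and 0.51). On the log2 scale Stip1 lay 1.05, 0.50 and 0.21 above the KI sham mean in KI TAC mice 5, 6 and 7. In WT TAC mice 7, 9 and 10 it lay 0.45, 0.24 and 0.55 above the WT sham mean. Chordc1, an HSP90 partner, stayed at 0.867 to 1.88 RPKM in all hearts.

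Neither heat shock factor passed the test in any comparison of the filtered limma fit of all 12 hearts as deposited. Hsf1, the main activator of the response and itself controlled after translation, read 10.8, 7.32 and 7.25 RPKM in KI TAC mice 5, 6 and 7 against 10.5 to 10.8 in KI sham hearts, and 9.84 to 12.2 in WT TAC against 11 to 11.5 in WT sham hearts. The KI difference was -0.33 (SE 0.17, limma adjusted p = 0.174). Mouse 5 lay at the sham level, and without it the KI difference was -0.50 (limma adjusted p = 0.0447). Hsf2 read 1.53, 1.39 and 1.15 RPKM in KI TAC and 0.77 to 1.01 in KI sham hearts, with no overlap and no call (0.33, SE 0.12, limma adjusted p = 0.0649). Hsf2 did pass under quantile normalization (0.46), median-ratio scaling (0.41), limma-voom (0.64), with no filter (0.33) and without KI TAC mouse 7 (0.39), with limma adjusted p of 0.0203 to 0.0459.

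Read heart by heart, the 18 members that rose in KI hearts divided into those that followed 1 order of mice and those that did not. KI TAC mouse 5 was the highest of the KI TAC hearts for 12 of the 18, which is 66.7%, against 32 of the 79 members tested (40.5%) and 19.8% of all genes tested, of which 26.5% were highest in mouse 6 and 53.7% in mouse 7, and 11 of the 18 fell in the order mouse 5, mouse 6, mouse 7. The 18 were called with mouse 5 among the hearts, while the other shares cover genes of any direction, so these values are a description and were not tested. The members in which it was not the highest were Hspb7, Bag5 and 4 TRiC subunits. The range was widest for Hspa1b and Hspa1a, and narrowest among the TRiC subunits. Without mouse 5 the KI comparison called 18 members, 14 up and 4 down, of which 16 were among the 21. Over all 11240 genes it then called 1854, 830 up and 1024 down, against 2620 with mouse 5. The median over the members was 0.19, 0.35 and 0.22 in KI TAC mice 5, 6 and 7, each as a difference from the KI sham mean, and 0.08, 0.005 and 0.22 in WT TAC mice 7, 9 and 10. Among the 18, WT TAC mouse 9 held the highest WT TAC value of Hspa1a, Hspa1b, Hspa8, Hsp90aa1, Dnaja4, Bag5, Hspb1 and Hspb7. Mouse 7 held that of Dnajb1, Cryab, Bag2 and Cct6a, and mouse 10 that of Dnajb4, Hspb8, Cct2, Cct3, Cct5 and Cct8. The 3 neutrophil markers in the table were highest in KI TAC mouse 5 and in WT TAC mouse 9. Of these, S100a9 read 12.3, 6.59 and 2.55 RPKM in KI TAC mice 5, 6 and 7. In WT TAC mice 7, 9 and 10 it read 2.83, 4.4 and 1.54. The part of these markers in the results was not tested.

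**Figure D5:**
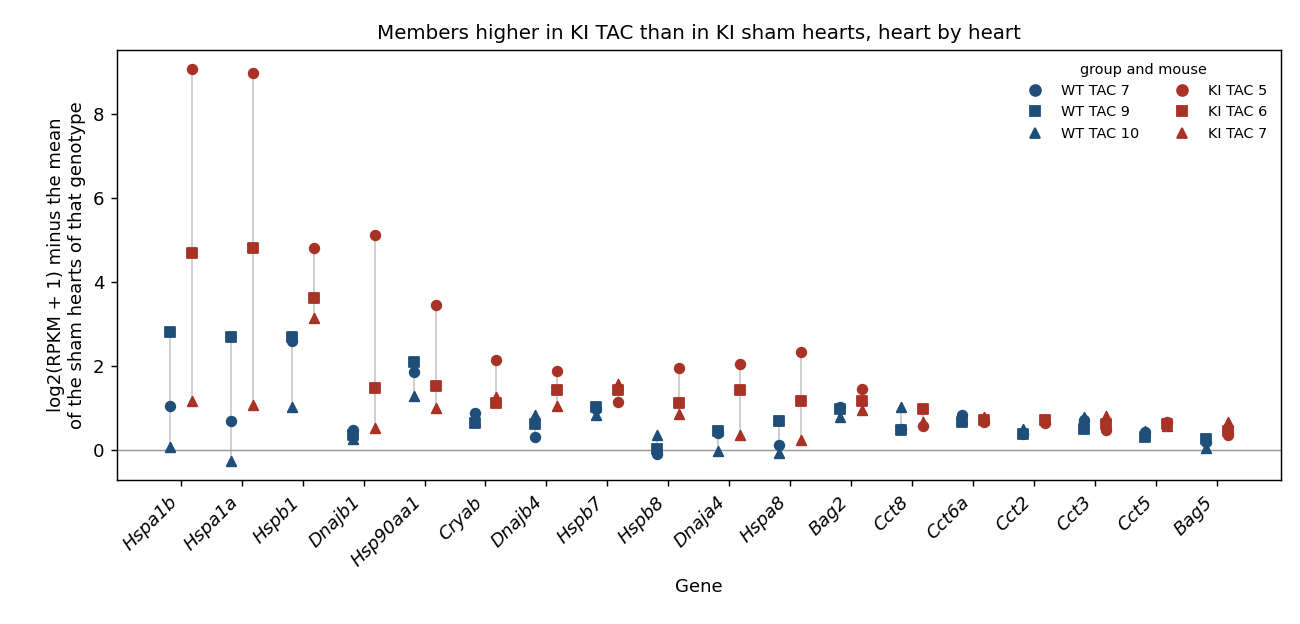
Difference of log2(RPKM + 1) from the mean of the sham hearts of that genotype (vertical axis) for the 18 members that rose in KI hearts (horizontal axis), in each WT TAC (blue) and KI TAC (red) heart, with a grey line over the range of a group. Hspa1b and Hspa1a range over about 8 log2 units among the KI TAC hearts, and the TRiC subunits at the right lie within 1 unit of each other.

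Promoters were searched for facing pairs of the heat shock unit, written GAANNTTC or TTCNNGAA, each of which reads the same on both strands. The RefSeq promoter table (GRCm38.p6) held 66 of the 82 members, and 16 of them (24.2%) had at least 1 such pair in the 250 bases before the start, against 3932 of 27025 genes (14.5%). Of the 15 members with a promoter that rose in KI hearts, 7 had one (46.7%): Hspa1a, Hspa1b, Hspb1, Dnajb4, Dnaja4, Cct2 and Cct5. Of the 49 other members tested, 9 had one (18.4%). Cryab, Hsp90aa1 and Hspa8 were not in the table. Hspa1a and Hspa1b, whose windows differ in 1 base, are counted separately in these shares. A match describes the letters only and the shares were not tested.

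Hspb1, which had the largest change in each genotype among the members called in both, had 2 such pairs 117 and 97 bases before its start (plus strand, chr5:135887769-135887918), and Dnajb4 had 1 at 14 bases (minus strand, chr3:152193846-152193995). The windows of these and of the TRiC subunit Cct2 (minus strand, chr10:117063376-117063525) are given to show how the letters differ between a member of each family, with the pairs in capitals. Starts are those of the RefSeq table. The windows of Dnajb4, Cct2 and Dnaja4 lie inside the GENCODE gene, beginning 16307, 289 and 623 bases downstream of its outermost start, so for these the starts of the 2 annotations differ.
Hspb1: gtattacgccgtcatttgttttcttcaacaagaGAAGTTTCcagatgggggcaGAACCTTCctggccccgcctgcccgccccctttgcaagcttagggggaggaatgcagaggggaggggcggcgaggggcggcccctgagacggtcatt
Dnajb4: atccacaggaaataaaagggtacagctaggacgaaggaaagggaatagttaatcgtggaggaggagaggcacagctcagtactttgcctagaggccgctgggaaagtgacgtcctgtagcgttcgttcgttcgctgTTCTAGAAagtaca
Cct2: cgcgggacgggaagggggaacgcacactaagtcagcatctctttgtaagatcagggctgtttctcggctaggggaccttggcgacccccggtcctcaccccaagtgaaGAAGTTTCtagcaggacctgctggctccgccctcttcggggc
Dnaja4 and Cct5 also hold a pair, and Hspe1 holds overlapping pairs that make a run of units, in the bases that follow (plus strand chr9:54699496-54699525, minus strand chr15:31601862-31601891 and plus strand chr1:55088053-55088082).
Dnaja4: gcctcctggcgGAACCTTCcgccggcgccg
Cct5: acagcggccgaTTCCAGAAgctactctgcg
Hspe1: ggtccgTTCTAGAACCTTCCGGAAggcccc
A run of 3 or more alternating units was found in 3 members, Hspd1, Hspe1 and Dnajb6, or 4.55% of the members against 0.514% of all genes. Of these 3, Hspd1 and Dnajb6 reached an adjusted p under 0.05 in no comparison under the alternatives tried, and Hspe1 did so as given above. The head-to-head genes Hspd1 and Hspe1 had the same numbers of matches (3 pairs and 2 runs each), so a shared stretch may be counted for both.

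Genes that work with the chaperones but are not members were counted from lists. For all these lists, the shares over all genes were 6.96% up and 4.6% down in WT hearts, and 8.57% up and 14.7% down in KI hearts. The list of heat shock factor targets and modulators also held the cold-inducible Rbm3. Of its 14 tested genes, 1 rose in WT hearts and 4 rose and 1 fell in KI hearts. Hmox1, the heme-degrading enzyme, read 23.8, 21.8 and 18.7 RPKM in KI TAC hearts, 8.37, 8.41 and 12.8 in WT TAC hearts and 1.94 to 3.43 in sham hearts. Its 3 groups were apart, and it rose by 1.54 in WT and 2.56 in KI hearts (SE 0.20, limma adjusted p = 0.000429 and 1.07e-05). In KI hearts the ubiquitin gene Ubb rose by 1.13, Ier5 by 1.68 and the cold-inducible Rbm3 by 1.19, and Hsf4 fell by 0.69 (limma adjusted p = 0.0368, 0.0249, 0.00379 and 0.0318). Ubb read 678, 261 and 223 RPKM in KI TAC mice 5, 6 and 7 against 108 to 223 in KI sham hearts, and Ier5 read 392, 127 and 133 against 44.9 to 82.9. Without KI TAC mouse 5 the calls of Ubb (0.64, limma adjusted p = 0.136), Ier5 (1.15, limma adjusted p = 0.108) and Hsf4 (-0.56, limma adjusted p = 0.117) were lost, and those of Hmox1 (2.48) and Rbm3 (1.39) were kept.

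Of the 6 listed partners of Bag3 in autophagy, 1 rose in WT and 3 in KI hearts. Flnc, the Z-disc filamin bound by Hspb1, Hspb7 and Bag3, read 916, 1196 and 388 RPKM in WT TAC mice 7, 9 and 10 and 4122, 1381 and 848 in KI TAC mice 5, 6 and 7, against 113 to 176 in sham hearts. Sham hearts lay far below, with mouse 10 the lowest WT TAC heart and mouse 5 the highest KI TAC heart, the positions those mice held for Hspb1. Flnc rose by 2.34 in WT and 3.52 in KI hearts (SE 0.49, limma adjusted p = 0.00833 and 0.000329), with 2.88 in KI hearts without KI TAC mouse 5 (limma adjusted p = 0.000761), and Synpo2, its scaffold, by 0.94 in KI hearts (limma adjusted p = 0.0253). Without KI TAC mouse 5 Synpo2 also kept its call (1.10, limma adjusted p = 0.0276), while that of Ubb was lost, as given above.

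Of 19 tested HSP90 cochaperones outside the members, 1 rose and 1 fell in WT hearts and 2 rose in KI hearts. Fkbp5, an immunophilin that restrains steroid receptors, read 16.4, 27.5 and 14.7 RPKM in KI TAC hearts, 1.31, 9.29 and 2.38 in WT TAC hearts and 1.07 to 5.42 in sham hearts, and mouse 5 was not the highest. It rose by 2.30 in KI hearts (SE 0.54, limma adjusted p = 0.00794) and was higher in KI than in WT TAC hearts by 2.20 (limma adjusted p = 0.0239), or by 2.29 without KI TAC mouse 5, where that call was lost (limma adjusted p = 0.0502). Its paralog Fkbp4 read 46.4, 35.6 and 49.8 RPKM in WT TAC hearts against 96.9 to 147 in WT sham hearts and fell there by 1.34 (SE 0.23, limma adjusted p = 0.00283), while in KI TAC hearts it read 69.1 to 99.3. The import receptor Tomm70a rose in both genotypes, by 0.62 and 0.75. Of 10 prefoldin genes and TRiC partners, Pfdn2 rose in KI hearts (0.71, limma adjusted p = 0.0315), and of 10 mitochondrial chaperones and proteases, Clpb fell there (-0.49, limma adjusted p = 0.0497), a call lost without KI TAC mouse 5 at the same size of change (-0.49, limma adjusted p = 0.0972). No gene of either list was called in WT hearts.

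Markers of other cells moved with surgery too. The summed neutrophil markers (3 of 5 in the table) were 0.395 to 1.27 RPKM in sham, 3.69 to 9.87 in WT TAC and 4.18 to 20.3 in KI TAC hearts, and 2 of 3 rose in WT and 3 of 3 in KI hearts. Fibroblast markers (7 of 7) summed to 138 to 678 RPKM in WT TAC and 98.6 to 179 in KI TAC hearts, against 115 to 226 in sham hearts, and 1 of 7 rose in WT and 1 of 7 fell in KI hearts. Of the 10 cardiomyocyte markers, 2 fell in WT and 1 in KI hearts, and 2 were higher in KI than in WT TAC hearts. Smooth muscle markers (4 of 4) summed to 54 to 129 RPKM in WT TAC, 41.2 to 81.9 in KI TAC and 26.6 to 54.7 in sham hearts, and macrophage markers (6 of 6) to 75.2 to 141, 79.5 to 91.1 and 58.9 to 79.2. Of the macrophage markers 2 of 6 rose in WT and 1 of 6 fell in KI hearts, and of the smooth muscle markers 1 of 4 rose in WT hearts. In KI TAC hearts 2 of 6 macrophage and 1 of 4 smooth muscle markers were lower than in WT TAC hearts. Without KI TAC mouse 5 no cardiomyocyte, fibroblast or macrophage marker was called in KI TAC against KI sham hearts. The nearest falls were Pln, Lum and Csf1r (-0.87, -1.08 and -0.57, limma adjusted p = 0.0808, 0.119 and 0.0649). The neutrophil marker Csf3r no longer passed there (0.37, limma adjusted p = 0.138). Between the TAC groups Myh6 was then the only cardiomyocyte marker called (0.99, limma adjusted p = 0.0489). Endothelial markers (5 of 5) summed to 235 to 329 RPKM over all hearts. Red blood cell markers (5 of 5) summed to 145 to 171 RPKM in WT sham and 74.8 to 114 in WT TAC hearts, without overlap, and to 134 to 244 in KI sham and 97.7 to 257 in KI TAC hearts, and none of the 5 was called in either genotype. No marker of skeletal muscle, lung epithelium or lymphocytes was in the table, nor were 3 of 4 brown fat markers, including Ucp1. The part of these cells in the results above was not tested.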

How the data were processed

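RNA of 12 mouse hearts was poly(A)-selected, made into strand-marked libraries and sequenced as single reads. Per the labels and methods, the authors trimmed reads with Trimmomatic 0.39, aligned them to GRCm38 with HISAT2 2.2.1, counted genes with HTSeq 0.6.1 and used edgeR 3.18.1. The deposited values are RPKM per gene and mouse, normalized by the authors. Depths were recovered from the spacing of low values using GENCODE exon lengths, in which 95.6% to 96.9% of the low values checked came out within 0.02 of a whole read. Depth sets counting error only.

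Genes with at least 1 RPKM in 3 mice (11240 of 13552) were fitted on log2(RPKM + 1) with limma 3.58.1 (R 4.3.3), with 1 mean per group over all 12 mice, a trended prior and Benjamini-Hochberg adjustment over all genes tested. Fold changes are on that scale and understate changes of low genes. The 5 tests were both TAC against sham comparisons, both KI against WT comparisons, and the interaction. An exact permutation of 3 against 3 mice cannot pass the threshold, so none was used. The fit was tested on simulated data. The edgeR test foreseen for counts was not used, since the table holds no counts. Nothing states whether mice of a group shared a cage or operation day, so p-values measure the spread between these mice. That spread is pooled over the 4 groups for each gene, so 1 outlying heart affects the p-values of all comparisons.

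The members, lists and named genes were chosen with earlier results of these data known. Named were, per family, the 3 largest called changes in each TAC comparison, the most abundant member, and a set of well-known members. Hspa1l, Hspb2, Hspb6, Hspb11, Bag4, Hspa9, Cct5, Cct7, Dnajb6, Dnajc1, Dnajc16, Dnajc17, Dnajc19, Dnajc21, Hspa2, Cct4 and, outside the members, Hsf4 were named after their values were seen. Alternatives were another pseudocount, no filter, quantile and median-ratio scaling, limma-voom on recovered reads, a threshold of 0.10, a fit of 2 groups, leaving out each mouse, and a replicate block. Promoter windows came from a RefSeq table.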

Additional observations from a re-analysis of the deposited data

Results flagged for a closer look

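For Bag3 and Dnajc1 the TAC hearts of the 2 genotypes lay on opposite sides of their own sham hearts, without overlap in either genotype. Neither gene passed the test in any comparison with all 12 hearts by limma, although Bag3 passed in KI hearts by limma-voom and without KI TAC mouse 6 or 7, and between the TAC groups without KI TAC mouse 7 (1.25, limma adjusted p = 0.0343). They were picked from the 79 members for this pattern, which 2 of 79 members (2.53%) and 73 of all 11240 genes tested (0.649%) showed. For Bag3 all 3 KI TAC hearts were above the KI sham hearts and all 3 WT TAC hearts below the WT sham hearts, and the difference between the 2 changes was 1.11 on the log2 scale (interaction, SE 0.47, limma adjusted p = 0.295). Its size rests largely on KI TAC mouse 5: mice 5, 6 and 7 lay 2.03, 0.37 and 0.47 above the KI sham mean. For Dnajc1, a J-domain protein of the endoplasmic reticulum, the pattern was the reverse: WT TAC hearts read 2.21, 2.37 and 2.66 RPKM against 1.86 to 2.18 in WT sham hearts, KI TAC hearts read 1.6, 1.76 and 1.84 against 1.92 to 2.16 in KI sham hearts, and the interaction was -0.33 (SE 0.17, limma adjusted p = 0.385). Neither interaction passed the threshold.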

How the results depend on the processing

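The count of members called in WT hearts (7) was 4 to 8 when each mouse was left out, with 4 without WT TAC mouse 7 (596 of all genes, against 1299), and 11 at a threshold of 0.10 (2064 of all genes). The count in KI hearts (21) was 11 to 27, with 11 without KI sham mouse 3 (1453 of all genes, against 2620), and 33 at a threshold of 0.10 (3633 of all genes). The count between the TAC groups (7) was 0 to 15: it was 0 without WT TAC mouse 7, KI TAC mouse 5 or KI TAC mouse 6 (21, 21 and 24 members and 2295, 3050 and 2390 of all genes at an unadjusted p under 0.05), where calls over all genes went from 1242 to 162, 646 and 186, 3 without WT sham mouse 2 or 3, WT TAC mouse 10 or KI sham mouse 3, and 15 without KI TAC mouse 7, where 1822 genes were called. It was 17 at a threshold of 0.10 (2293 of all genes) and 0 in the fit of those 2 groups alone (17 members and 2815 of all genes at an unadjusted p under 0.05, with 216 of all genes called). The interaction count (0) was 0 to 2, with Dnaja4 (1.45, limma adjusted p = 0.0495) and Hspa1a (5.86, limma adjusted p = 0.0482) called without KI TAC mouse 7, where 182 of all genes were called. Without WT TAC mouse 9 it was 0 members and 240 of all genes. The sham count was 0 under all alternatives. The 2 sham groups share mouse numbers 1 to 3, the 2 TAC groups share only number 7, and no TAC group shares a number with its sham group, so a block could be fitted between the sham groups only. The numbers did not pair the sham hearts: the correlations of same-numbered deviations were -0.22, -0.30 and 0.44, and the fit with the replicate block called 0 members. Of 34 calls of named members, 14 were kept under all alternatives, 20 were lost under at least 1, and 0 reversed. The causes were not tested. Recovered reads were as few as 34 in a heart among the members tested (Dnajc17), and the offset of 1 RPKM shrinks changes of members near that level, such as Hsf2 and Chordc1.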
